A study of Arabidopsis thaliana with 8 samples.

Results

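The mark m6A (N6-methyladenosine, adenosine with a methyl group on its base) was described here by its peaks in transcripts of the 2 organelle genomes of Arabidopsis thaliana, the plastid genome and the mitochondrial genome. All rows of the authors' peak lists whose gene identifier begins with ATCG (plastid) or ATMG (mitochondrial) were taken, 121 of 41217 rows in all. The list of the mutant atalkbh10b-1 held 67 of them among 20696 peaks, and the list of wild-type Columbia-0 held 54 among 20521. Plastid peaks numbered 49 in 26 identifiers in the mutant and 38 in 19 identifiers in wild type. Mitochondrial peaks numbered 18 in 16 identifiers in the mutant and 16 in 14 identifiers in wild type. Both genotypes were grown in the Columbia-0 background and sampled as seedlings aged 14 days, and the labels give the mutant as atalkbh10b -/-, a lesion in the gene of an m6A demethylase. Each genotype had 2 pull-down libraries, made from poly(A) RNA fragments bound by an antibody against m6A, and 2 input libraries without the antibody, 8 in all. The value of a peak is the authors' log2 enrichment in each of 2 replicates, so that a value of 1 stands for a doubling of pull-down over input on their scale.

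Plastids and mitochondria keep small genomes of their own, inherited from bacterial ancestors. The plastid genome encodes core subunits of the photosystems and other photosynthetic complexes together with parts of its own transcription and translation machinery, and the mitochondrial genome encodes subunits of the respiratory complexes and parts of its own ribosome. Both are transcribed inside the organelle, often as long precursors that cover several genes and are then cut, spliced and edited. In plant organelles a poly(A) tail marks RNA for degradation, unlike the tail of nuclear messenger RNA, so that purification on oligo(dT) captures organelle RNA only in part. The m6A of nuclear-encoded messenger RNA is written by a methyltransferase complex in the nucleus.

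The gene names of these identifiers are not given in the lists, and none of the 52 identifiers with a peak (29 plastid, 23 mitochondrial) was found in the annotation table of the TAIR10.1 assembly. They are therefore given as identifiers, without a name or a role. That table held 85 protein-coding genes on the plastid genome, with 7 symbols listed in 2 copies each, and 33 on the mitochondrial genome. A large copy of the mitochondrial genome also lies in nuclear chromosome 2, in the stretch of identifiers beginning with AT2G07, which had 19 peaks in the mutant list and 17 in the wild-type list, those of unrelated neighbours included. How the authors assigned reads of such copies is not given in the sources used here, so values of individual organelle identifiers are uncertain to that extent. Depth is unknown, since the lists give enrichment and no counts. In whole seedlings, fewer cells of a type and less RNA per cell cannot be told apart.

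Organelle peaks stood at the low end of the enrichment scale in both genotypes. The median over plastid peaks of the mean log2 enrichment of 2 replicates was 1.10 in the mutant and 0.97 in wild type. For mitochondrial peaks it was 1.40 in the mutant and 1.10 in wild type, against 2.46 in both genotypes for nuclear peaks. A mean of 2 or more was reached by 2 of 49 plastid peaks in the mutant and by 4 of 38 in wild type. Among mitochondrial peaks it was reached by 4 of 18 in the mutant and 2 of 16 in wild type, and over all listed peaks by 60.6% in the mutant and 61.4% in wild type. The highest organelle mean was 2.76, at bases 2141 to 2240 of ATCG01010 in wild type, while nuclear means ran up to 13.54 in the mutant and 13.87 in wild type. No test was made of this contrast, since peaks of 1 library are not replicates.

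**Figure D1:**
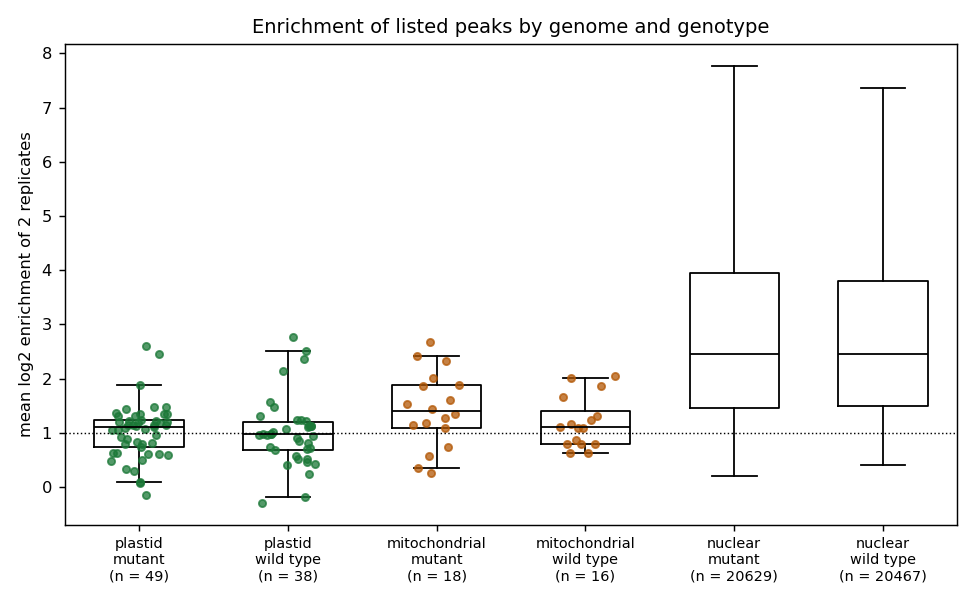
Mean log2 enrichment of 2 replicates (vertical axis) of the listed peaks of each genome in the mutant and in wild type. Points are single organelle peaks, boxes span the quartiles with the median as a line, whiskers run from the 2.5th to the 97.5th percentile, and the dotted line is a log2 enrichment of 1. Medians lie between 0.97 and 1.40 for organelle peaks and at 2.46 for nuclear peaks.

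Most plastid peaks reached a log2 enrichment of 1 in only 1 of the replicates. Both replicates reached it at 19 of 49 plastid peaks in the mutant (38.8%) and 9 of 38 in wild type (23.7%), where 64.6% of all mutant peaks and 68.2% of all wild-type peaks did so. The corresponding mitochondrial counts were 9 of 18 in the mutant and 8 of 16 in wild type, 50.0% each. Exactly 1 of the 2 replicates reached it at 27 plastid peaks in the mutant (55.1%) and 28 in wild type (73.7%). Over all peaks this share was 35.1% in the mutant and 31.4% in wild type. Among mitochondrial peaks it was so at 7 of 18 in the mutant and 7 of 16 in wild type. Neither replicate reached it at 3 plastid peaks in the mutant and 1 in wild type. A value below 0, that is less signal in the pull-down than in the input, occurred in at least 1 replicate at 9 plastid peaks of each genotype, and at 4 mitochondrial peaks in the mutant and 1 in wild type. Over all peaks this was so at 17.3% in the mutant and 13.5% in wild type. The share was 18.4% of plastid peaks in the mutant and 23.7% in wild type. Among mitochondrial peaks it was 22.2% in the mutant and 6.25% in wild type.

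By median, the 2 replicates of an organelle peak lay closer together on the log2 scale than those of a nuclear peak. The gap could still match the enrichment itself, which had a median mean of 0.97 for plastid peaks in wild type. The median difference between replicates was 0.65 for plastid peaks in the mutant and 0.95 in wild type. It was 0.72 for mitochondrial peaks in the mutant and 0.38 in wild type, against 1.80 for nuclear peaks in the mutant and 1.46 in wild type. Without ATCG01280, the identifier with most plastid peaks, the plastid values were 0.64 in the mutant and 0.66 in wild type. A smaller difference for organelle peaks was also seen in the 2 lowest classes of enrichment. In the class of mean log2 enrichment from 1 to 1.5, the median difference was 0.41 for 26 plastid and 0.34 for 6 mitochondrial peaks in the mutant, against 1.05 for 2759 nuclear peaks. In wild type the same class gave 0.40 for 11 plastid and 0.19 for 6 mitochondrial peaks, against 0.97 for 2779 nuclear peaks. Below a mean of 1 the values were 1.14 for 20 plastid peaks in the mutant and 1.29 for 22 in wild type, against 2.38 for nuclear peaks of the mutant and 1.91 for those of wild type. In the class from 1.5 to 2, however, 4 mitochondrial peaks of the mutant had a median difference of 1.76, against 1.06 for nuclear peaks. Replicate 1 was the higher at 32 of 49 plastid peaks in the mutant and 22 of 38 in wild type, and at 15 of 18 mitochondrial peaks in the mutant and 9 of 16 in wild type. Over all peaks it was the higher at 54.4% in the mutant and 49.9% in wild type. The number of reads behind a peak was not available, so its part in this was not tested.

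**Figure D2:**
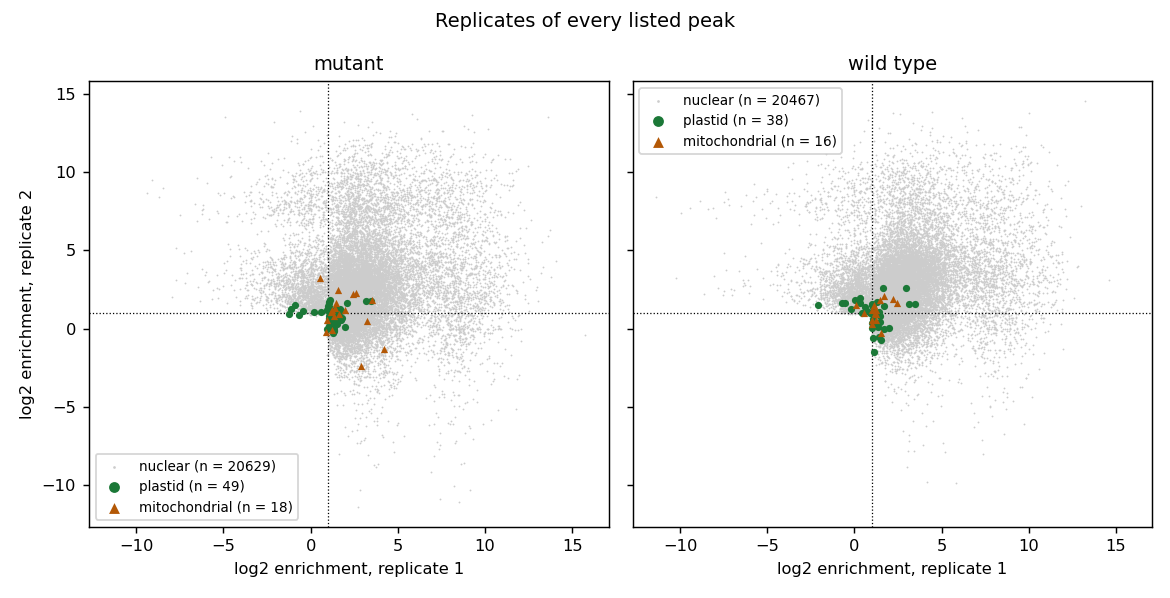
Log2 enrichment of replicate 1 (horizontal axis) and replicate 2 (vertical axis) of every listed peak, in the mutant (left) and wild type (right). Circles are plastid peaks, triangles mitochondrial peaks and grey points nuclear peaks. Dotted lines mark a log2 enrichment of 1, and organelle peaks gather where the lines cross, between -2.39 and 4.21 in the mutant and between -2.10 and 3.48 in wild type.

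Plastid identifiers were listed in both genotypes in 16 cases of 29 (55.2%, against 77.4% of all 14304 genes with a peak in either list). The mutant list alone had 10 of them (34.5%, against 9.54% of all genes) and the wild-type list alone had 3 (10.3%, against 13.0%). With 1 list per genotype such a difference has no replicate check, and scarcity of a transcript in the libraries, which was not examined, would also keep it off a list. Each of these 13 identifiers carried 1 peak, with means between -0.14 and 1.48.

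Of the 10 plastid identifiers listed in the mutant alone, 4 had both replicates at 1 or more, against 59.2% of peaks over all genes found just in the mutant list. ATCG00160 had 1.12 and 1.84 at bases 361 to 504, and ATCG00020 had 1.54 and 1.16 at bases 1 to 195. ATCG01080 had 1.43 and 1.24 at bases 401 to 530, and ATCG00380 had 1.20 and 1.06 at bases 383 to 538. The other 6 had at least 1 replicate under that level. They were ATCG00500 (0.95 and 1.21), ATCG00120 (1.13 and 0.98), ATCG00470 (1.06 and 0.79), ATCG00420 (0.17 and 1.09), ATCG00820 (1.12 and 0.05) and ATCG01050 (-1.24 and 0.96), and in ATCG01050 neither replicate reached 1. In wild type alone, ATCG00520 had 1.42 and 1.03 at bases 381 to 550, ATCG00150 had 1.05 and 0.64, and ATCG01110 had 1.01 and 0.03.

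By position, 23 of 49 plastid peaks in the mutant overlapped a wild-type peak of the same identifier by at least 1 base (46.9%, exact binomial 95% interval 32.5 to 61.7, counting error only), against 69.3% of all mutant peaks. In the other direction, 24 of 38 wild-type peaks overlapped a mutant peak (63.2%, interval 46.0 to 78.2), against 69.4% of all wild-type peaks. Both intervals treat peaks as independent, though many lie in the same identifiers, and with 1 list per genotype they are no test of a difference. Enrichment moves with the share of overlapping peaks, and its part in that share was not tested. Among nuclear peaks with a mean below 1, 55.6% overlapped in the mutant and 51.1% in wild type, where 7 of 20 plastid peaks of that class did in the mutant and 11 of 22 in wild type. In the class from 1 to 1.5, 64.4% of nuclear peaks overlapped in the mutant and 64.1% in wild type, beside 13 of 26 plastid peaks in the mutant and 8 of 11 in wild type. With peaks limited to those with both replicates at 1 or more, in both lists, 4 of 19 plastid peaks in the mutant and 4 of 9 in wild type had an overlapping peak, against 61.9% of all such mutant peaks and 58.9% of all such wild-type peaks.

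Of the 16 plastid identifiers listed in both genotypes, 2 had no overlapping peaks, against 4.25% of all genes listed in both. ATCG00190 had 3 peaks in each genotype, at bases 858 to 1020, 1850 to 2030 and 2621 to 2790 in the mutant and at bases 491 to 704, 1581 to 1729 and 2233 to 2544 in wild type. Its means were 1.10, 0.73 and 1.22 in the mutant and 1.13, 0.24 and 0.72 in wild type. ATCG00040 had a peak at bases 351 to 520 in the mutant (1.01 and 1.29) and at bases 171 to 300 in wild type (0.43 and 0.98).

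The 5 plastid identifiers with most peaks held 26 of 49 in the mutant (53.1%) and 24 of 38 in wild type (63.2%). ATCG01280 had 7 peaks in each genotype, ATCG00860 had 6 in the mutant and 7 in wild type, ATCG01130 had 6 in the mutant and 3 in wild type, ATCG00170 had 4 in each, and ATCG00190 had 3 in each. The peaks of these identifiers ran from bases 101 to 270 of ATCG00170 to bases 6161 to 6260 of ATCG01280, both in wild type. Outside them, 21 plastid identifiers had 23 peaks in the mutant and 14 had 14 in wild type.

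The peaks of ATCG00860 and ATCG01280 lay at nearly the same bases of the 2 models in the mutant, and in part in wild type. In the mutant, each of the 6 peaks of ATCG00860 overlapped a peak of ATCG01280 at the same bases, and the log2 values of the same replicate differed by a median of 0.14 (at most 0.66). In wild type, 4 of the 7 peaks of ATCG00860 overlapped 3 of the 7 of ATCG01280, with a median difference of 0.31 (at most 0.56), and the other 3 of ATCG00860 and 4 of ATCG01280 had no counterpart. At the mutant peak of highest agreement in replicate 1, bases 551 to 810 of ATCG00860 had 1.51 and 0.88, and bases 514 to 820 of ATCG01280 had 1.58 and 0.55. No overlapping peaks of the 2 identifiers had the same borders in either list. Their values are not independent of each other if they are copies with shared reads, which the sources used here do not settle.

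**Figure D3:**
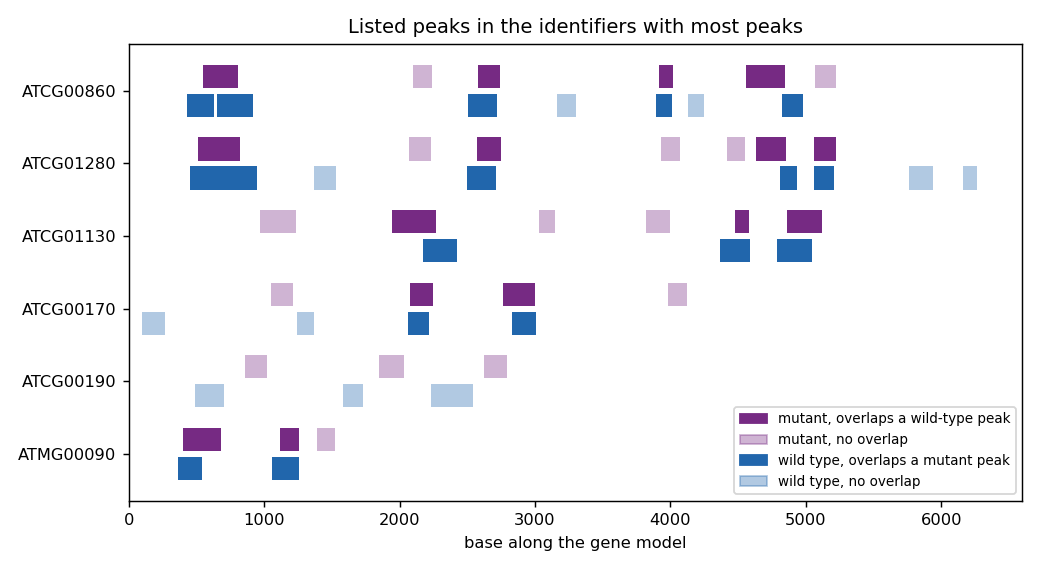
Listed peaks along the gene models (horizontal axis, bases from the start of the model) of the 5 plastid identifiers and the mitochondrial identifier with most peaks. In each row the mutant is above wild type, full colour marks peaks that overlap a peak of the other genotype and pale colour those that do not. The mutant peaks of ATCG00860 and ATCG01280 show like patterns, and no peak of ATCG00190 overlaps.

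Enrichment was compared between genotypes at 23 plastid pairs of overlapping peaks, in 14 identifiers, each peak being the largest overlap of the other. The median mean was 1.19 in the mutant and 1.10 in wild type, and the median log2 difference (mutant minus wild type) was 0.10, against -0.02 over all 13876 pairs. The sign of the plastid median depended on the libraries and on the summary: it was -0.21 without replicate 1 of the mutant, -0.12 without replicate 1 of wild type and -0.02 with means over all peaks of an identifier. The mutant mean was higher by at least 1.5-fold at 2 plastid pairs (8.70%, against 32.4% of all pairs) and lower by at least 1.5-fold at 4 (17.4%, against 32.1%). The other 17 (73.9%) lay within 1.5-fold, against 35.4% of all pairs. The median SD between replicates was 0.43 at plastid pairs, against 1.00 over all pairs. Over all pairs the median means were 2.57 in the mutant and 2.62 in wild type. The part of spread and enrichment in these shares was not tested. None of the 23 was called with limma's moderated test (adjusted p = 1.00 for each, Benjamini-Hochberg over all pairs), none had an unadjusted p under 0.05, and 0.00% of all pairs were called. The unadjusted p was under 0.05 at 3.54% of all pairs. With 2 replicates in each genotype these tests do not show that the genotypes act alike. The test also draws the variance of each pair towards a value set by all pairs, whose median SD was larger. The lack of calls is therefore not a property of the plastid replicates alone. The counts past 1.5-fold depended on single libraries. The count of higher pairs was 1 without replicate 1 of the mutant, 8 without its replicate 2 and 6 without replicate 2 of wild type, and the count of lower pairs was 8 without replicate 1 of wild type.

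The largest plastid difference lay at 1 peak of the look-alike identifiers ATCG00860 and ATCG01280. In ATCG00860 the peak at bases 2581 to 2740 had 1.27 and -0.26 in the mutant, against 3.48 and 1.54 at bases 2505 to 2721 in wild type. The mutant mean was 0.50 ± 1.08 and the wild-type mean 2.51 ± 1.37 (SD, n = 2 each), a log2 difference of -2.01 (unadjusted p = 0.174 with limma, adjusted p = 1.00). In ATCG01280 the peak at bases 2571 to 2747 had 1.35 and -0.13 in the mutant, against 3.15 and 1.58 at bases 2500 to 2715 in wild type, a log2 difference of -1.75 (unadjusted p = 0.200 with limma). At both identifiers both mutant values lay below both wild-type values, which held for 2 of the 23 plastid pairs, those named here, and for 15.0% of all pairs. The replicates of each genotype differed by at least 1.48 on the log2 scale at both peaks, and the higher value was that of replicate 1 in each genotype. Without replicate 1 of wild type the differences were -1.04 in ATCG00860 and -0.97 in ATCG01280, and without replicate 2 of the mutant they were -1.24 in ATCG00860 and -1.02 in ATCG01280. Means over all peaks of an identifier differed by -0.10 in ATCG00860 and by -0.12 in ATCG01280.

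Other pairs of ATCG00860 had values on either side. At bases 551 to 810 it had 1.51 and 0.88 in the mutant, against -0.51 and 1.65 at bases 651 to 920 in wild type, a difference of 0.62 in which the wild-type values enclosed those of the mutant. Without replicate 1 of wild type that difference was -0.46. At a second wild-type peak overlapping the same mutant peak, at bases 431 to 630, ATCG00860 had 0.58 and 1.36. The mean there was 0.97, against 0.57 at the paired wild-type peak and 1.19 in the mutant. At bases 3914 to 4020 it had -0.45 and 1.10 in the mutant, against 1.48 and 0.43 at bases 3895 to 4010 in wild type, a difference of -0.63 with values that overlap, which was 0.15 without replicate 1 of the mutant. At bases 4560 to 4844 it had 1.48 and 0.91 in the mutant, against 0.32 and 1.93 at bases 4821 to 4978 in wild type, where the peaks shared only 24 bases. ATCG01280 had 1.67 and 1.28 at bases 4631 to 4856 in the mutant, against 0.30 and 1.65 in wild type, and 1.54 and 1.06 at bases 5061 to 5219 in the mutant, against 1.67 and -0.05 in wild type. In ATCG01280 these 2 differences were 0.50 and 0.49, both within the spread of the wild-type replicates.

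ATCG00170 carried the plastid pair with the largest higher mutant mean. Its peak at bases 2761 to 3002 had 3.15 and 1.74 in the mutant, against 1.70 and 1.45 at bases 2829 to 3009 in wild type. The means were 2.44 ± 0.99 in the mutant and 1.57 ± 0.17 in wild type (SD, n = 2 each), a log2 difference of 0.87 that limma did not call (adjusted p = 1.00). It was 0.17 without replicate 1 of the mutant and 1.57 without its replicate 2, and the mean over all peaks of ATCG00170 differed by 0.46. The lower mutant value lay just above the higher wild-type value. A second pair of ATCG00170, at bases 2081 to 2250 in the mutant, had 1.02 and 1.61, against 1.05 and 1.39 in wild type, with overlapping values. Its 2 other peaks in each genotype had no partner.

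The plastid pair of highest mean over the 4 values was that of ATCG01010, with 2.68, followed by the ATCG00170 pair above and that of ATCG01000, both with 2.01. ATCG01010 had a peak at bases 2141 to 2240 in both lists, with the same borders, and 3.45 and 1.73 in the mutant against 2.94 and 2.59 in wild type. ATCG01000 had 2.09 and 1.66 at bases 781 to 1030 in the mutant, against 1.66 and 2.60 at bases 881 to 1030 in wild type. In ATCG01010 and ATCG01000 the values of the genotypes overlapped. Together with the 2 pairs of ATCG00170 these were the only 4 plastid pairs at which all 4 values reached 1, against 57.8% of all pairs. ATCG01010 had a further peak at bases 1 to 100 in the mutant alone (1.03 and 1.69).

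The remaining plastid pairs had log2 differences between -0.60 and 0.50. ATCG00430 had 1.06 and 1.23 in the mutant, against 0.92 and 1.01 in wild type, at bases 1 to 100 in both lists. ATCG00800 had 1.08 and 1.29 at bases 551 to 650 in the mutant, against 1.01 and 0.35 at bases 431 to 630 in wild type. At these 2 pairs and at the ATCG00170 pair above, the mutant values did not reach down to those of wild type, which made 3 of 23 plastid pairs, against 13.7% of all pairs. ATCG00360 had 1.48 and 0.28 in the mutant, against 1.28 and 1.68 in wild type, a difference of -0.60 that was 0.0062 without replicate 2 of the mutant. Values overlapped also at ATCG00740 (1.73 and 1.15 in the mutant, 1.27 and 0.93 in wild type), ATCG01040 (1.28 and 0.63 in the mutant, 1.03 and 1.60 in wild type) and ATCG00280 (1.07 and 1.35 in the mutant, 1.16 and 0.99 in wild type). The pairs of ATCG00180, ATCG00680, the 3 of ATCG01130 and the first of ATCG01280 had log2 differences between -0.19 and 0.30, with overlapping values at each. The closest of them was the pair of ATCG01130 at bases 4861 to 5120 in the mutant, with 1.16 and 1.21, against 1.32 and 0.92 in wild type, a difference of 0.07.

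**Figure D4:**
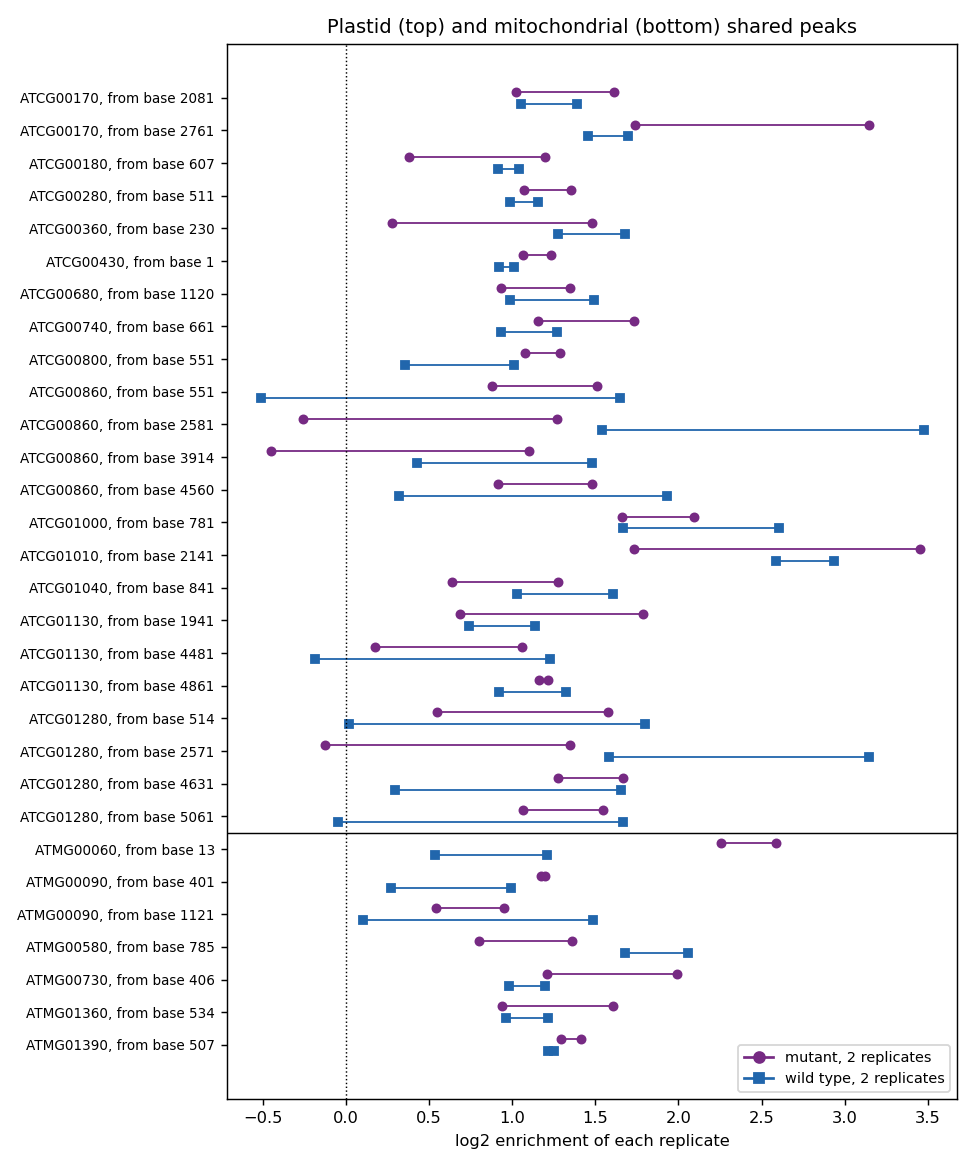
Log2 enrichment (horizontal axis) of each replicate at the 23 plastid and 7 mitochondrial pairs of overlapping peaks, named by identifier and the first base of the mutant peak. In each row the mutant (circles) is above wild type (squares), and lines join the 2 replicates of a genotype. The values of the genotypes overlap at 18 plastid and 2 mitochondrial pairs.

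Mitochondrial identifiers were listed in both genotypes in 7 cases of 23 (30.4%), in the mutant alone in 9 (39.1%) and in wild type alone in 7 (30.4%), beside 77.4%, 9.54% and 13.0% of all genes. All 16 identifiers listed in 1 genotype had 1 peak each. Peaks with both replicates at 1 or more were 4 of the 9 of the mutant alone and 6 of the 7 of wild type alone, against 59.2% over all genes found just in the mutant list and 58.8% over those found just in the wild-type list.

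In the mutant alone, ATMG00670 had the highest mean, with 3.52 and 1.84 at bases 446 to 601, followed by ATMG00830 with 2.42 and 2.21 at bases 281 to 450. ATMG01130 had 1.57 and 2.45 at bases 191 to 290, and ATMG00510 had 1.19 and 1.08 at bases 961 to 1155. The other 5 rested on 1 replicate. ATMG00290 had 4.21 and -1.31, ATMG00285 had 3.25 and 0.48, ATMG01320 had 0.52 and 3.26, ATMG00110 had 2.89 and -2.39, and ATMG00070 had 1.24 and -0.10. The highest single value of any organelle peak, that of ATMG00290, thus stood beside a second replicate below 0.

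In wild type alone, the replicates lay closer. ATMG00180 had 2.23 and 1.88 at bases 73 to 190, and ATMG00520 had 2.42 and 1.61 at bases 1871 to 1987. ATMG00690 had 1.48 and 1.85 at bases 1 to 145, and ATMG00640 averaged 1.31 ± 0.27 (SD, n = 2) at bases 411 to 565. ATMG00410 had 1.15 and 1.18, ATMG00516 had 1.03 and 1.20, and ATMG01190 had 0.56 and 1.01. The median difference between replicates was 1.69 in the 9 mitochondrial peaks of the mutant alone and 0.37 in the 7 of wild type alone. For nuclear peaks of genes listed in 1 genotype it was larger, 3.34 in the mutant alone and 2.83 in wild type alone.

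Of the mitochondrial peaks, 7 of 18 in the mutant (38.9%, exact binomial 95% interval 17.3 to 64.3) and 7 of 16 in wild type (43.8%, interval 19.8 to 70.1) overlapped a peak of the other genotype, against 69.3% of all mutant and 69.4% of all wild-type peaks. With both replicates at 1 or more required, 1 of 9 in the mutant and 1 of 8 in wild type did, against 61.9% of all such mutant peaks and 58.9% of all such wild-type peaks. ATMG00220 was listed in both genotypes without overlap, at bases 1 to 100 in the mutant (1.45 and 1.62) and at bases 315 to 450 in wild type (1.55 and -0.29). ATMG00090 had most peaks, 3 in the mutant and 2 in wild type, and ATMG00730 had 1 in the mutant and 2 in wild type. The intervals above hold counting error only, treat peaks as independent and are no test of a difference.

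At the 7 mitochondrial pairs, in 6 identifiers, the median mean was 1.27 in the mutant and 1.09 in wild type, and the median log2 difference 0.19. The mutant mean was higher by at least 1.5-fold at 1 pair (14.3%, against 32.4% of all pairs), lower at 1 (14.3%, against 32.1%) and within 1.5-fold at 5. The median SD between replicates was 0.28 at mitochondrial pairs, against 1.00 over all pairs, and its part in these shares was not tested. Values of the genotypes did not overlap at 5 of the 7. Both mutant values were above both wild-type values at 4 (57.1%, against 13.7% of all pairs) and below at 1 (14.3%, against 15.0%). None was called with limma (adjusted p = 1.00 for each), and the smallest unadjusted p was 0.163. Here too the test drew the variance of each pair towards a value set by all pairs. The median log2 difference was 0.52 without replicate 2 of the mutant. The count of higher pairs was 2 without replicate 2 of either genotype and 3 without replicate 1 of wild type, and the count of lower pairs was 0 without replicate 2 of the mutant and 2 without replicate 1 of wild type.

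ATMG00060 had the largest mitochondrial difference. Its peak at bases 13 to 180 had 2.59 and 2.26 in the mutant, against 1.21 and 0.53 at bases 1 to 140 in wild type. The means were 2.42 ± 0.23 in the mutant and 0.87 ± 0.48 in wild type (SD, n = 2 each), a log2 difference of 1.55, or 2.93-fold (unadjusted p = 0.163 with limma, adjusted p = 1.00). The gap between the lower mutant value and the higher wild-type value was larger than the distance between replicates in either genotype (0.33 in the mutant and 0.68 in wild type). Both mutant values were below both wild-type values at ATMG00580, whose peak at bases 785 to 970 had 1.36 and 0.80 in the mutant, against 1.68 and 2.06 at bases 788 to 973 in wild type. Its means were 1.08 ± 0.40 in the mutant and 1.87 ± 0.27 in wild type, a log2 difference of -0.79 (unadjusted p = 0.433 with limma). Here the gap between the genotypes was smaller than the distance between replicates in either, and the difference was -0.51 without replicate 2 of the mutant.

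The other 5 mitochondrial pairs lay within 1.5-fold. ATMG00090 had 1.20 and 1.17 at bases 401 to 680 in the mutant, against 0.99 and 0.27 at bases 361 to 540 in wild type, and 0.95 and 0.54 at bases 1121 to 1260 in the mutant, against 0.10 and 1.49 at bases 1061 to 1260 in wild type. Mutant values were above those of wild type at the first of these peaks and overlapped them at the second. ATMG00730 had 1.99 and 1.21 at bases 406 to 605 in the mutant, against 1.19 and 0.98 at bases 390 to 530 in wild type. ATMG01390 had 1.41 and 1.29 at bases 507 to 727 in the mutant, against 1.25 and 1.22 at bases 511 to 743 in wild type, and was the only mitochondrial pair with all 4 values at 1 or more. At ATMG00730 and ATMG01390 the mutant values were narrowly above those of wild type. ATMG01360 had 1.60 and 0.94 at bases 534 to 775 in the mutant, against 1.21 and 0.96 at bases 528 to 684 in wild type, with overlapping values.

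Organelle peaks had the width of other peaks. The median width was 160 bases for plastid peaks in both genotypes, 158 for mitochondrial peaks in the mutant and 143 in wild type, and 157 for nuclear peaks in both. The widest organelle peak covered 496 bases, in ATCG01280 in wild type. Peaks that began at the first base of the model were 5 of 49 plastid peaks in the mutant and 1 of 38 in wild type, and 2 mitochondrial peaks in each genotype, against 0.730% of all mutant peaks and 0.858% of all wild-type peaks. Those in the mutant were in ATCG00020, ATCG00420, ATCG00430, ATCG00820, ATCG01010, ATMG00070 and ATMG00220, and those in wild type in ATCG00430, ATMG00060 and ATMG00690, so that ATCG00430 had a peak at the first base in both genotypes.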

How the data were processed

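Each genotype has 1 list of peaks, in which the authors give the gene, the borders of the peak within its model and a log2 ratio per replicate, headed as enrichment per the file headers. The submitters' processing notes name TopHat2 2.0.14, edgeR and the build TAIR10 without saying what each was used for. How peaks were called, how enrichment was scaled, and what became of reads with several matches is not stated in the labels or headers. The headers number 3 replicates and the labels 2, called biological and nothing more. The p-values therefore cover no spread beyond that of these libraries. The moderated test also draws the variance of each pair towards a value set by all 13876 pairs, 13846 of them nuclear. The median SD was 0.43 at plastid, 0.28 at mitochondrial and 1.00 over all pairs. At organelle pairs the p-values thus do not measure their own replicate spread alone. The 2 remaining value columns (1 per list) correspond to no labelled sample and were left out.

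Here, peaks of 1 identifier that overlapped by at least 1 base were taken as shared. Pairs that were mutually largest overlaps were tested with limma 3.58.1 (R 4.3.3), on all 13876 pairs at once. Benjamini-Hochberg adjustment was used, with no pseudocount and no replicate block. The fit was first run on simulated data, and the size of shift that it can call is not reported here. Means at least 1.5-fold apart were counted as higher or lower. Other steps used Python 3.11.15, numpy 2.4.6, pandas 2.3.3, scipy 1.17.1 and matplotlib 3.10.9. The members, lists and tests were chosen with earlier results of these data known. Named were identifiers listed in 1 genotype, those with most peaks, and all shared pairs. Planned gene groups and genes named by symbol could not be used, because the annotation table does not pair these identifiers with symbols. Alternatives were wider overlap, stricter enrichment, a ratio of 2, centring, means per gene, leaving out each replicate, a replicate block and another prior.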

Additional observations from a re-analysis of the deposited data

How the results depend on the processing

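Of 97 alternatives for counts and medians, 75 stayed within 1.5 times the reported count or within the replicate spread and 22 did not. Some of the 75 could hardly move, such as limma counts of 0 and centred medians. Others stayed within the spread though their sign changed, as the plastid median difference did. The 75 are therefore no measure of stability. Of 86 for single pairs, 82 kept their direction and 4 reversed, but many of the 86 could not reverse. The replicate block, the other prior, wider overlap and stricter enrichment left each single-pair difference as it was, and centring barely moved it. The 4 reversals came from leaving out a replicate or from means per identifier. With both replicates at 1 or more required, overlapping plastid peaks were 4 in the mutant and 4 in wild type, mitochondrial ones 1 and 1, and the median replicate difference of mitochondrial peaks in the mutant 0.21. A ratio of 2 left 0 plastid pairs higher, 2 plastid pairs lower and 0 mitochondrial pairs lower. Means over all peaks of an identifier gave 0 plastid higher, 2 plastid lower and 3 mitochondrial higher, and -0.10 for ATCG00860. Only pairs with a mean of 1 or more gave 1 plastid pair higher. Leaving out 1 replicate moved the plastid count between 1 and 8 for higher and between 3 and 8 for lower pairs, and the mitochondrial count between 1 and 3 for higher and between 0 and 2 for lower pairs. It moved the mitochondrial median difference between 0.060 and 0.52, and the plastid one between -0.21 and 0.22. It moved single pairs between -1.20 and 0.0062 (ATCG00360), between -0.46 and 1.71 (ATCG00860 from base 551), between -1.41 and 0.15 (ATCG00860 from base 3914), between -2.97 and -1.04 (ATCG00860 from base 2581), between -2.54 and -0.97 (ATCG01280 from base 2571), between 0.17 and 1.57 (ATCG00170 from base 2761), between -1.07 and -0.51 (ATMG00580) and between 1.21 and 1.89 (ATMG00060). The causes were not tested. limma called 0 organelle pairs under each alternative run. In fits with a library left out, the lone library is assumed to vary like the other genotype.

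The replicate block gave 0 calls among plastid and 0 among mitochondrial pairs, as did the fit without it. The labels do not tie equal numbers to a shared day or batch, and the deviations of equal numbers correlated at 0.00678 over all pairs, so the block is given only here. Leaving out ATCG01280, chosen after seeing the data, moved none of its results past these limits. The median replicate difference of plastid peaks in wild type still fell from 0.95 to 0.66, which the limit of the replicate spread allows. Leaving out near-identical copies by symbol was not run, since the identifiers have no symbols in the table, and a second pseudocount was not run on log2 values. The lists give no depth, so counting error of single values is unknown.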
